A study of Rattus norvegicus with 6 samples.

Results

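Matrix metalloproteases (MMPs), ADAMTS proteases, the plasminogen activator system and their inhibitors were followed through adipogenic induction of ADSCs, stem cells of the stroma of rat fat that can turn into adipocytes. Members were chosen by name: every gene with an Mmp, Timp or Adamts symbol followed by a digit, together with Plau, Plaur, Plat and Reck. The rule itself uses no measured values, but it was set with earlier results of these data known. The rule found 42 of the 18166 genes on the array, each read by 1 feature (a probe set). The induced group comprised 3 cultures kept for 7 days in medium with 5 µg/ml insulin, 1 µM of the glucocorticoid dexamethasone, 0.5 mM of 3-isobutyl-1-methylxanthine, an inhibitor of cAMP breakdown, and 20% fetal bovine serum. The control group comprised 3 cultures grown with 10% serum, so serum differed together with the inducers. The labels do not say how long the control cells were cultured. All cells came from inguinal fat of female Wistar rats aged 2 weeks, and whether the cultures stem from separate animals is not stated, so p-values measure the spread between these cultures. Values are log2 RMA signals from one-colour Affymetrix arrays, and every difference is induced minus control, with 1 unit being a doubling.

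MMPs are zinc proteases that cut collagens, gelatins and other matrix proteins, either after secretion or from the cell surface. They are made as inactive precursors. ADAMTS proteases are secreted relatives that trim procollagens or cut proteoglycans such as versican and aggrecan. Tissue inhibitors of metalloproteases (TIMPs) bind these enzymes and block them, Reck is a membrane-anchored inhibitor, and the plasminogen activators turn plasminogen into plasmin, which can activate MMP precursors. In growing fat the pericellular matrix is remodelled while cells fill with lipid, and the collagenase Mmp14 is known to be needed for that in mice.

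The arrays of a group were not equally alike. Induced replicates 1 and 2 correlated at r = 0.9894 across all features, while induced replicate 3 correlated with them at 0.9681 and 0.9687, lower than control replicate 1 did with either (0.9793 and 0.9816). Markers fixed for mature adipocytes averaged 10.29, 10.33 and 11.30 on induced replicates 1 to 3, against 8.16, 6.77 and 6.59 on control replicates 1 to 3. Control replicate 1 thus had the highest adipocyte marker mean of the controls. Stromal progenitor markers averaged 8.94, 8.93 and 8.31 in induced cells and 9.35, 9.44 and 9.58 in control cells, with Pdgfra at 11.99, 11.95 and 9.05 against 12.26, 11.77 and 11.61. Endothelial (6 measured) and epithelial or mesothelial markers (8 measured) averaged between 4.88 and 5.51 on every array, below the median of all features (5.69). Single markers among them read above it on every array: endothelial Egfl7 (6.76 to 8.27) and mesothelial Msln (6.15 to 8.74). Mural cell markers (7 measured) averaged between 6.54 and 7.17, and neutrophil and mast cell markers (6 measured) between 4.15 and 4.56. RNA was taken from whole cultures, in which fewer cells of a type and less RNA per cell cannot be told apart. Because induced replicate 3 stood apart, the change of a member under the naming rule (stated with the processing) is given with and without it in set cases. These were that leaving it out turned the direction, changed the call or moved the estimate by over 1.5 times. Other genes are not always given both ways. Pdgfra turned from -0.88 to 0.09 without that array, and Thy1 passed only without it (-0.97 and -1.01, limma adjusted p = 0.0507 and 0.0307).

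None of the 42 members passed the test over all genes (limma, Benjamini-Hochberg adjusted p under 0.05), a rule that 0.749% of all genes met. At an unadjusted p under 0.05 there were 11 members, or 26.2%, against 17.6% of all genes. The 3 induced arrays lay wholly apart from the 3 control arrays for 12 members, or 28.6%, a share near the 25.4% of all genes, with 4 members higher and 8 lower in induced cells (all genes 12.0% and 13.4%). The median change of the members was -0.19, beside -0.01 over all genes, and 28 of 42 had an estimate below 0 (66.7%, against 52.4% of all genes). Without induced replicate 3 the member median was -0.04 and 22 estimates were below 0. In that fit 4 members passed, all higher in induced cells: Timp4, Adamts15, Adamts5 and Mmp15. Of all genes 3.07% passed there, and 2.00% as higher. The groups then did not overlap for 19 members (45.2%), against 35.8% of all genes, and without both replicate 3 arrays for 23 members (54.8%), against 46.3% of all genes. With array weights 5 members passed, against 5.11% of all genes. A change of at least 1 was seen for 3 members upward (7.14%, all genes 2.81%) and 2 downward (4.76%, all genes 2.17%). Most members, 29 of 42 (69.0%), averaged above the median of all features, as did 61.9% of all genes.

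**Figure D1:**
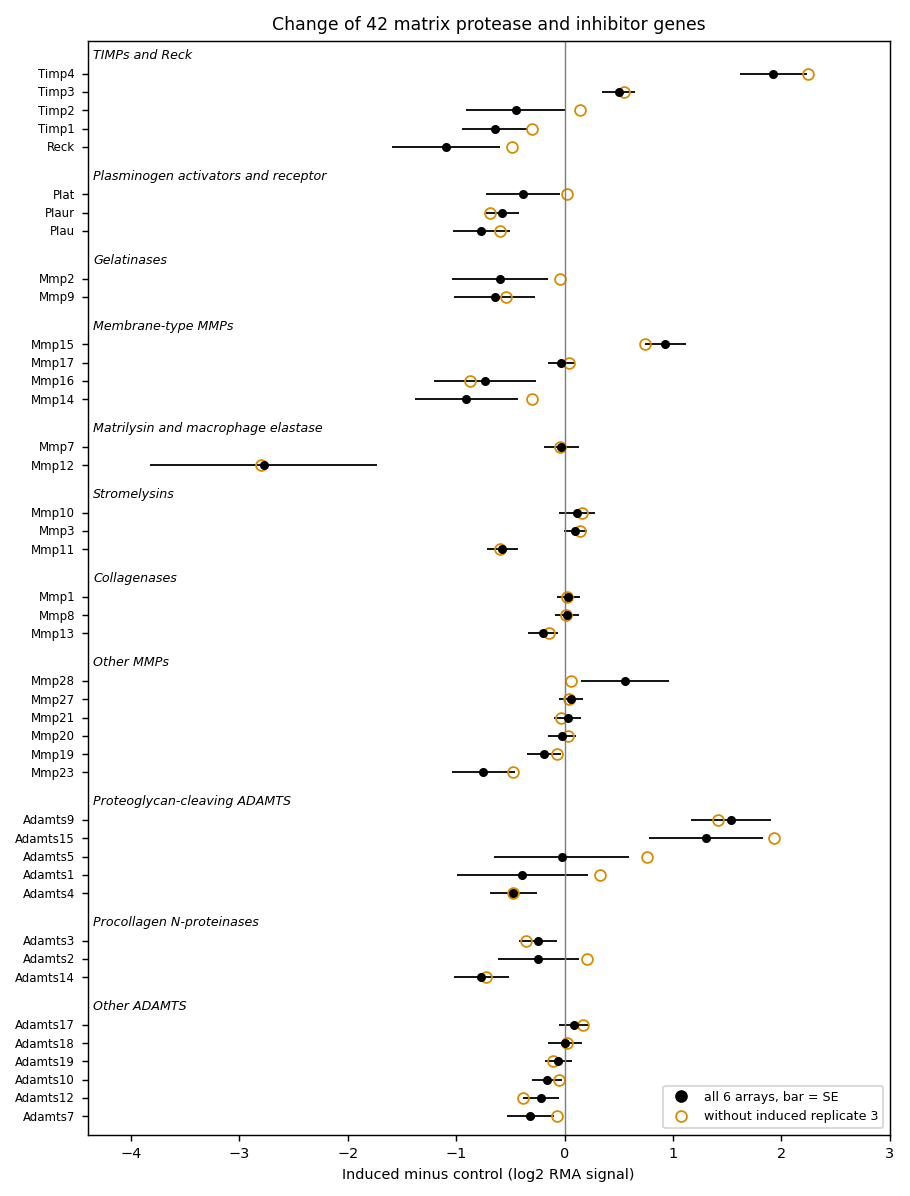
Induced minus control (log2 RMA signal, x axis) for each of the 42 members, grouped by role; black points use all 6 arrays with the standard error as bar, and open circles leave out induced replicate 3. Timp4 lies furthest right at 1.93 and Mmp12 furthest left at -2.78, while the open circles of Adamts5, Adamts1, Timp2 and Mmp2 sit well to the right of their black points.

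Of the inhibitors, Timp4 had the largest positive change of any member. Timp4, the TIMP best known from heart and fat, read 8.46, 8.39 and 7.48 on induced replicates 1 to 3, against 6.38, 6.40 and 5.76 on control replicates 1 to 3. Every induced array lay above every control array, with a gap of 1.07 between the closest arrays. The change was 1.93 (SE 0.31, limma adjusted p = 0.0564), or 3.80-fold, which missed the threshold. It passed without induced replicate 3, at 2.24 (adjusted p = 0.00548). It passed too without both replicate 3 arrays (2.03, adjusted p = 0.000998). The replicate 3 array was the lowest of its group for Timp4 in induced and control cells alike.

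Timp3, which binds to the matrix itself, also lay higher in induced cells without overlap. It read 6.52, 6.40 and 6.31 in induced cells and 6.17, 5.84 and 5.71 in control cells, a change of 0.50 (SE 0.15, adjusted p = 0.172). Timp1 and Timp2, the soluble inhibitors of many MMPs, overlapped between the groups. Timp1 read 11.94, 12.11 and 11.00 in induced cells, against 12.09, 12.60 and 12.28 in control cells, with induced replicate 2 inside the control range. The Timp1 estimate was -0.64, and -0.30 without induced replicate 3. Timp2, which also helps Mmp14 to activate Mmp2, read 12.01, 12.05 and 10.27 in induced cells, against 11.91, 11.89 and 11.88 in control cells. The Timp2 control values lay close together (SD 0.02), and induced replicate 3 alone was below them. Its estimate of -0.45 (95% interval -1.56 to 0.66) became 0.14 without that array. Reck, the membrane-anchored inhibitor, read 8.92, 8.89 and 7.08 in induced cells and 9.74, 9.28 and 9.15 in control cells. All induced Reck values were below all control values, but induced replicate 3 set much of the change: -1.09 with it (adjusted p = 0.324) and -0.48 without it (adjusted p = 0.247).

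**Figure D2:**
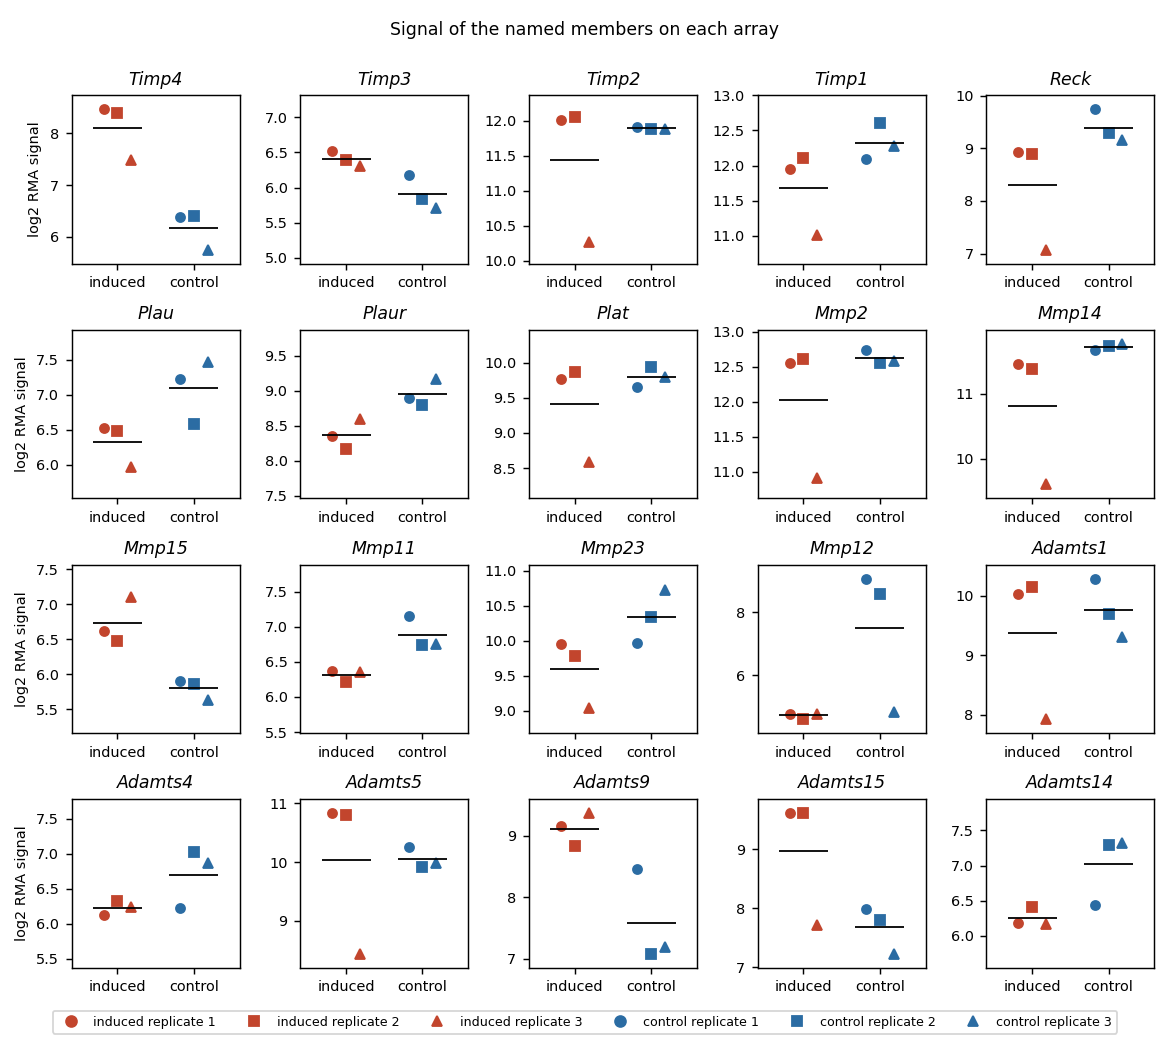
Signal (log2 RMA, y axis, scaled per gene) of 20 members on each of the 3 induced (red, left) and 3 control arrays (blue, right); marker shape gives the replicate and the line the group mean. Timp4, Timp3, Mmp15 and Adamts9 lie higher in induced cells without overlap, and induced replicate 3 sits alone at the bottom for Timp2, Mmp2, Mmp14, Plat, Reck, Adamts1 and Adamts5.

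The urokinase pair lay lower in induced cells. Plau encodes urokinase and read 6.52, 6.48 and 5.97 in induced cells, against 7.22, 6.59 and 7.47 in control cells. Plaur, its cell surface receptor, read 8.35, 8.17 and 8.60 in induced cells, against 8.90, 8.80 and 9.16 in control cells. Neither pair of groups overlapped, but the closest arrays were only 0.07 apart for Plau and 0.20 for Plaur. Induced replicate 3 was the lowest induced array for Plau but the highest for Plaur. The changes were -0.77 for Plau (SE 0.26, adjusted p = 0.214) and -0.58 for Plaur (SE 0.16, adjusted p = 0.150), and neither passed with all arrays weighted equally. Plat, tissue plasminogen activator, read 9.77, 9.88 and 8.59 in induced cells, against 9.66, 9.94 and 9.79 in control cells. Induced replicates 1 and 2 lay inside the control range of Plat, and without induced replicate 3 its estimate was 0.03.

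The gelatinase Mmp2 and its activator Mmp14 had their lowest signal on induced replicate 3. Mmp2 read 12.55, 12.61 and 10.91 in induced cells, against 12.73, 12.56 and 12.58 in control cells. Mmp14, a membrane-type collagenase, read 11.45, 11.37 and 9.61 in induced cells, against 11.67, 11.72 and 11.76 in control cells. The Mmp2 groups overlapped, since induced replicate 2 lay inside the control range, whereas for Mmp14 all induced arrays were below that range. The Mmp2 estimate was -0.60 (95% interval -1.66 to 0.46) and -0.04 without induced replicate 3. The Mmp14 estimate was -0.91 (95% interval -2.05 to 0.23, adjusted p = 0.386) and -0.30 without induced replicate 3 (adjusted p = 0.221). The other gelatinase, Mmp9, which neutrophils and macrophages release and which lies outside the naming rule, read 6.21, 5.61 and 5.59 in induced cells and 6.25, 7.26 and 5.83 in control cells, with overlapping groups.

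Among the other membrane-type enzymes Mmp15 lay higher in induced cells without overlap. It read 6.62, 6.47 and 7.10 in induced cells, against 5.90, 5.87 and 5.63 in control cells. Here induced replicate 3 was the highest array. The change of 0.93 (SE 0.19, adjusted p = 0.0869) missed the threshold and was 0.75 without that array (adjusted p = 0.0419). Mmp11, known as stromelysin 3 and made by stromal cells, read 6.37, 6.21 and 6.35 in induced cells, against 7.16, 6.74 and 6.76 in control cells, -0.57 (SE 0.15, adjusted p = 0.133). Mmp23, a membrane-anchored enzyme, read 9.95, 9.78 and 9.04 in induced cells, against 9.96, 10.34 and 10.72 in control cells, -0.75 (SE 0.29, adjusted p = 0.259). The Mmp23 estimate was -0.48 without induced replicate 3 (adjusted p = 0.332). Both sets of induced values stayed below the control values, for Mmp23 by only 0.01 between the closest arrays. Mmp28, outside the naming rule, was the 1 member that induced replicate 3 carried upward by over 1 unit: 5.89, 5.83 and 7.36 in induced cells, against 5.84, 5.61 and 5.95 in control cells. Its estimate was 0.56, and 0.06 without that array.

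Mmp12, the macrophage elastase, had the largest negative estimate, and its control arrays disagreed with each other. It read 4.77, 4.60 and 4.76 on induced replicates 1 to 3, and 9.07, 8.59 and 4.81 on control replicates 1 to 3. Control replicates 1 and 2 were high, and control replicate 3 sat at the level of the induced arrays. The change of -2.78 (SE 1.05, adjusted p = 0.248) did not pass. Without control replicate 3 it was -4.12 (adjusted p = 0.00609), and without both replicate 3 arrays -4.14 (adjusted p = 0.000373), in a fit that called 3 members and 4.07% of all genes.

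Macrophage and leukocyte markers were also read, and Lyz2, Adgre1 and Ptprc among them were picked outside the rule for lists, with earlier results known. The mean of 16 macrophage and leukocyte markers was 7.73, 7.23 and 6.00 in induced cells, against 6.69, 7.09 and 5.47 in control cells, and 0 of 16 passed. Without induced replicate 3, 4 of the 16 passed, all higher in induced cells: C1qb (2.88), Cd163 (1.65), C1qc (1.41) and C1qa (0.92). The replicate 3 array was the lowest of its group in induced and control cells alike for 12 of the 16. Lyz2, a lysozyme of macrophages, read 11.56, 10.99 and 4.44 in induced cells, against 9.31, 10.19 and 4.71 in control cells, so it was below 5 on replicate 3 of either group and above 9 elsewhere. Cd68, a lysosomal protein of macrophages, was instead highest on induced replicate 3, at 8.92, 8.38 and 9.45 in induced cells, against 8.01, 8.60 and 5.96 in control cells. C1qb, a complement gene of macrophages, read 8.17, 7.60 and 4.92 in induced cells, against 5.09, 4.98 and 4.96 in control cells. On the arrays numbered 1 and 2, 6 of the 16 markers were higher on both induced than on both control arrays, 1 (Ptprc) was lower on both, and the other 9 were mixed. Adgre1, the macrophage surface protein F4/80, read 5.73, 5.12 and 4.84 in induced cells, against 5.60, 6.58 and 4.80 in control cells. Ptprc, the pan-leukocyte phosphatase, was dim throughout, at 5.13, 4.63 and 4.26 in induced cells and 5.64, 5.35 and 4.04 in control cells. Their part in the Mmp12 difference was not tested.

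**Figure D3:**
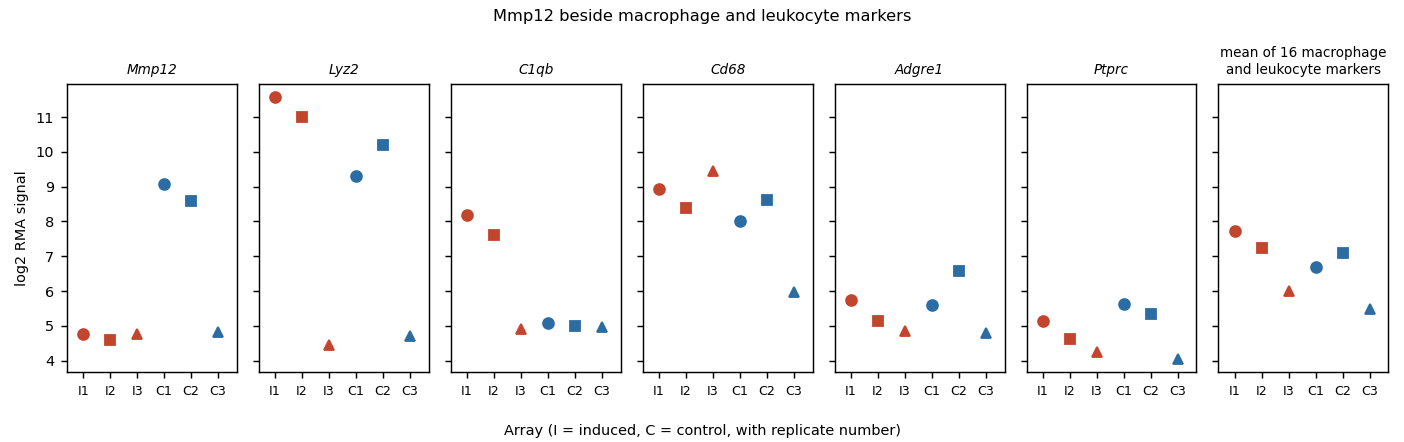
Signal (log2 RMA, y axis) on the 3 induced (I1 to I3, red) and 3 control arrays (C1 to C3, blue) for Mmp12, the macrophage genes Lyz2, C1qb, Cd68 and Adgre1, the leukocyte gene Ptprc, and the mean of 16 macrophage and leukocyte markers. Mmp12 is high only on C1 and C2, while Lyz2 is high on I1, I2, C1 and C2 and below 5 on I3 and C3, Adgre1 is highest on C2 and Ptprc on C1.

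Mmp12 belongs to a row of neighbouring MMP genes on rat chromosome 8, and none of the 8 neighbouring members showed its pattern. In RefSeq's GRCr8 gene order 9 members follow each other as Mmp13, Mmp12, Mmp3, Mmp1, Mmp10, Mmp8, Mmp27, Mmp20 and Mmp7, with 3 other entries between them, of which 1 is protein-coding. That one, Mmp1b between Mmp12 and Mmp3, had no feature among the genes tested, so its level is not analysed here. They include the collagenases Mmp1, Mmp8 and Mmp13, the stromelysins Mmp3 and Mmp10, the matrilysin Mmp7 and the tooth enamel protease Mmp20. The 8 other than Mmp12 read between 3.04 and 5.12 on every array, below the median of all features, with changes from -0.20 to 0.11 (adjusted p at least 0.513). RMA gives no detection call and compresses low signals, so differences in these 8 may be understated.

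**Figure D4:**
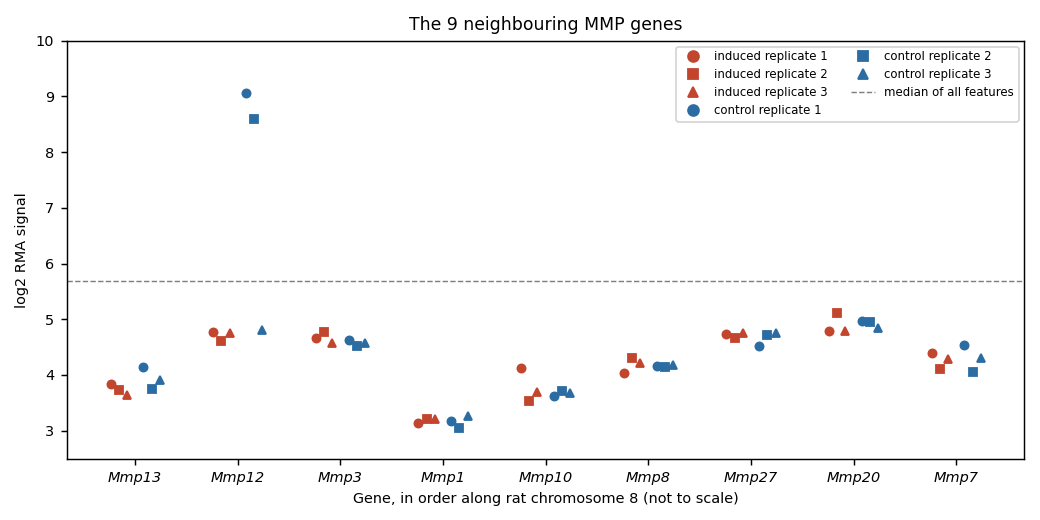
Signal (log2 RMA, y axis) of the 9 neighbouring MMP genes in their order along chromosome 8 (x axis, not to scale) on each induced (red) and control array (blue); the dashed line is the median of all features (5.69). The only points above the line are those of Mmp12 on control replicates 1 and 2.

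The promoters of 7 of these 9 neighbours hold a motif that the choice of members did not use. All 9 are adjacent genes of the same family, so their promoters need not be independent of each other. RefSeq promoter windows, from 250 bases before the gene start to 50 after it, were found for 32 of the 42 members. The letters TGANTCA stood in 7 of the 9 neighbours and in 1 of 23 other members (Plaur), against 7.33% of all 33469 windows. They are a loose form of the binding motif of AP-1 (Fos and Jun dimers), TGACTCA or TGAGTCA, since any middle base was taken. The only match of Mmp20 reads TGAATCA, outside the stricter form. The share of all windows with the stricter form was not counted. The motif reads the same on both strands except for its middle base, and it overlapped none of the other motifs searched. The following stretches show it in capitals, 60 bases each, 5′ to 3′ on the gene's strand (GRCr8, plus strand for all), because it stood in Mmp12 and in 6 of the 8 neighbours whose signal was low, all but Mmp8 and Mmp27, and was rare elsewhere among the members. Its first base lies 87 bases before the start of Mmp12, 66 before Mmp13, 71 before Mmp3, 84 before Mmp1, 61 before Mmp10, 96 before Mmp20, 80 before Mmp7 and 83 before Plaur. Mmp1 holds another match, TGAATCA, 242 bases before its start.
Mmp12, chr8:12866539-12866598: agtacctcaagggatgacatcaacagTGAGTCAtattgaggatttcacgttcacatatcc
Mmp13, chr8:12782737-12782796: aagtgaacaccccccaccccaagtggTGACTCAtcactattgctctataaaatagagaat
Mmp3, chr8:12925184-12925243: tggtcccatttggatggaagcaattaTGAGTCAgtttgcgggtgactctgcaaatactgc
Mmp1, chr8:12943343-12943402: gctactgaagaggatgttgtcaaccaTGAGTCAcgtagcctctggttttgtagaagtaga
Mmp10, chr8:12974620-12974679: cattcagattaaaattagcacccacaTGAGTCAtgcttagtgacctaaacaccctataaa
Mmp20, chr8:13074157-13074216: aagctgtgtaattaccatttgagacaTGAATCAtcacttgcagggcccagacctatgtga
Mmp7, chr8:13132937-13132996: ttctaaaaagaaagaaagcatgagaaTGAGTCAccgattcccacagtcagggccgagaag
Plaur, chr1:89181254-89181313: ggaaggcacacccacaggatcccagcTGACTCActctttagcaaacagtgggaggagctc

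Other motifs were searched on both strands of the same windows. TATAAA, the letters of a TATA box, was counted on either strand and anywhere in the window. It stood in 8 of the 9 neighbours (Mmp12 and 7 of the other 8) and 4 of 23 other members (14.2% of all windows). In Mmp8, Adamts7 and Adamts10 it lay only on the strand opposite to the gene. TTGCNNAA, a C/EBP motif, stood in 5 of 9 neighbours, Mmp12 among them, and 1 of 23 others (10.6% of all windows). The Mmp12 match lies 23 bases after the gene start, not before it. The full PPAR response element (direct repeat with a spacer of 1 base) stood in 0 of 32 member windows and in 0.0538% of all windows, and the glucocorticoid response element in 0 of 32 and 0.439%. A match describes letters in this window and does not show that a factor binds there. No window was matched for Adamts5, Adamts15, Adamts19, Mmp2, Mmp9, Mmp14, Mmp16, Mmp17, Mmp19 and Plat.

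The ADAMTS proteases that cut proteoglycans held both of the other members with changes above 1. Adamts9, which cuts versican and aggrecan, read 9.15, 8.83 and 9.36 in induced cells, against 8.45, 7.09 and 7.20 in control cells. All induced arrays lay above all controls, and control replicate 1 was over 1 unit above the other controls. The change was 1.54 (SE 0.37, adjusted p = 0.120), or 2.90-fold, and 1.97 without control replicate 1 (adjusted p = 0.0334). Control replicate 1 also had the highest adipocyte marker mean of the controls, and the part of that in the Adamts9 level was not tested. Adamts15, also a versican-cutting enzyme, read 9.60, 9.61 and 7.72 in induced cells, against 7.98, 7.81 and 7.23 in control cells. Induced replicates 1 and 2 stood well above the controls and induced replicate 3 lay within their range. Its change was 1.30 (SE 0.53, adjusted p = 0.273) with all arrays and 1.93 without induced replicate 3 (SE 0.22, adjusted p = 0.0104).

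Adamts5 and Adamts1 are direct neighbours in the RefSeq gene order on chromosome 11, and both were lowest on induced replicate 3. Adamts5, a main aggrecanase of cartilage, read 10.83, 10.81 and 8.45 in induced cells, against 10.25, 9.92 and 9.99 in control cells. Adamts1, which cuts versican, read 10.03, 10.14 and 7.93 in induced cells, against 10.28, 9.69 and 9.30 in control cells. For Adamts5, induced replicates 1 and 2 were above every control and induced replicate 3 below every control. Its estimate was -0.03 with all arrays (95% interval -1.52 to 1.47, adjusted p = 0.988) and 0.76 without induced replicate 3 (adjusted p = 0.0425), so its direction rests on that array. Adamts1 turned likewise, at -0.39 with it and 0.33 without it (adjusted p = 0.802 and 0.611). Adamts4, the other classical aggrecanase, read 6.13, 6.32 and 6.24 in induced cells, against 6.22, 7.02 and 6.86 in control cells, with overlap through control replicate 1 (-0.47, adjusted p = 0.321).

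Of the procollagen N-proteinases, which remove the amino-terminal propeptide of fibrillar procollagens, Adamts14 lay lower in induced cells without overlap. It read 6.18, 6.41 and 6.16 in induced cells, against 6.43, 7.30 and 7.33 in control cells, and control replicate 1 came within 0.03 of an induced array. The change was -0.77 (SE 0.25, adjusted p = 0.203). The other 2 of this group, Adamts2 and Adamts3 (outside the naming rule), overlapped and had estimates of -0.24 each. The direction of Adamts2 rests on induced replicate 3, being 0.21 without it (adjusted p = 0.513), while Adamts3 was at -0.36. The 6 ADAMTS genes of other roles (Adamts7, 10, 12, 17, 18 and 19) overlapped too, with changes from -0.32 to 0.09 (-0.38 to 0.17 without induced replicate 3).

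In all, 22 members were outside the naming rule, and with all arrays the groups overlapped for each of them. Without induced replicate 3 the groups no longer overlapped for 4 (18.2%, against 35.8% of all genes): Adamts3, Adamts12 and Mmp16 lower in induced cells and Mmp3 higher. The naming rule took out members without overlap at an unadjusted p under 0.05, so these shares are low in part by construction. Of the 22, 13 averaged below the median of all features, at 3.04 to 5.53 on single arrays. None of the 13 had an estimate beyond 0.24 in either direction with all arrays (adjusted p at least 0.513). The other 9 read between 5.23 and 10.24, with changes from -0.73 to 0.56 (-0.87 to 0.21 without induced replicate 3).

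Induced replicate 3 was the array that most divided the members. It lay at least 1 unit below the mean of induced replicates 1 and 2 for 10 of 42 members (23.8%), against 3.95% of all genes, and at least 1 above it for 1 member, against 4.26%. The 10 were Adamts5 (-2.37), Adamts1 (-2.15), Adamts15 (-1.89), Reck (-1.83), Mmp14 (-1.81), Timp2 (-1.76), Mmp2 (-1.67), Adamts2 (-1.36), Plat (-1.23) and Timp1 (-1.02). Protease and inhibitor genes were thus lower there side by side, among them Mmp2, Mmp14 and Timp2, which act together on the cell surface. For 8 members that array was at least 1 unit below all 5 other arrays, as it was for 1.98% of all genes. It was the lowest induced array for 24 of 42 members, and other lists showed this too. The counts were 11 of 12 AP-1 and ETS factors, 13 of 16 macrophage and leukocyte markers and 11 of 14 cathepsins and tolloids. They were lower for protease inhibitors outside the members (6 of 15), mural markers (2 of 7) and endothelial markers (2 of 6). On the same array 7 of 9 stromal markers were the lowest of the induced arrays, Pdgfra (9.05) by the most, while Thy1 (11.21) and Cd34 (4.69) were the highest, and 10 of 12 adipocyte markers were the highest. Whether these move the members was not tested.

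**Figure D5:**
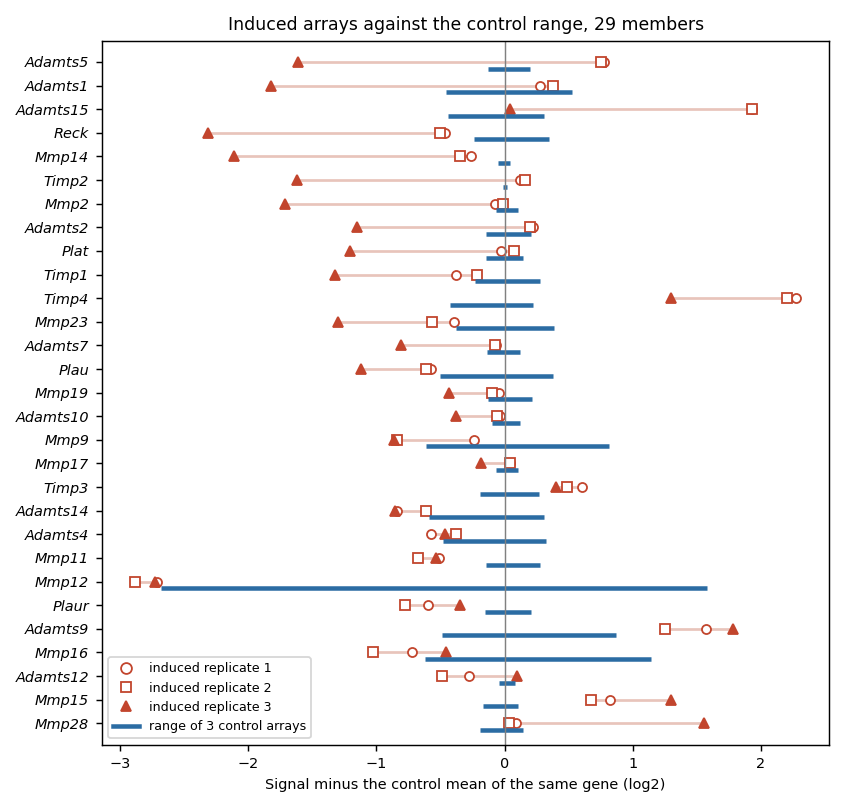
Signal of each induced array minus the control mean of the same gene (log2, x axis) for the 29 members above the median of all features, ordered by how far induced replicate 3 (filled triangles) lies from induced replicates 1 and 2 (open symbols); blue bars are the range of the 3 control arrays. At the top, Adamts5 to Timp1 have the triangle at least 1 unit left of the mean of both open symbols, and at the bottom Mmp28 has it over 1 unit to the right.

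Other genes of the matrix protease network were read from lists of 7 kinds, and 1 gene in them passed. The basement membrane collagen Col4a2 rose by 1.08 (adjusted p = 0.0243), at 10.30, 10.37 and 10.45 in induced cells, against 9.48, 9.24 and 9.17 in control cells. It was the 1 of 13 measured matrix substrates that passed with all arrays (list median -0.29). Col4a1 narrowly missed the threshold there, at 1.03 (limma adjusted p = 0.0550). Without induced replicate 3, 4 of the 13 passed, all higher in induced cells: Col4a2, Col4a1 (1.09), Ncan (1.40) and Eln (0.94), and the list median was -0.03. None passed of 15 serpins and other protease inhibitors (median 0.07), of 14 plasminogen system genes and convertases (median -0.21), of 9 ADAM proteases (median -0.27), of 6 ADAMTS-like genes (median -0.15), or of 14 cathepsins, tolloids and related enzymes (median -0.02). None of 12 AP-1 and ETS factors passed either, with a list median of -0.50, beside -0.01 over all genes, and -0.08 without induced replicate 3. In these 6 lists 2 genes passed without that array, the cysteine protease inhibitor Cst3 (1.22, adjusted p = 0.00621) and Fap, and the 6 medians lay between -0.09 and 0.20.

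The genes with the largest estimates of each list without a called gene follow, after 1 that was chosen with its values seen. Ncan, the proteoglycan neurocan, read 7.12, 6.99 and 9.70 in induced cells, against 5.21, 5.79 and 5.96 in control cells, with no overlap. Its estimate was 2.28 (adjusted p = 0.185), and 1.40 without induced replicate 3, its highest array (adjusted p = 0.0301). Serpina3n, a secreted serpin, stood at 2.61 (adjusted p = 0.178): 12.94, 13.06 and 12.61 in induced cells, against 10.98, 11.52 and 8.27 in control cells. Slpi, an inhibitor of leukocyte elastase, stood at -1.12 with overlapping groups (adjusted p = 0.677), and at -0.16 without induced replicate 3. Pcsk6, a proprotein convertase, stood at -1.07 (adjusted p = 0.236). Cd44, a hyaluronan receptor that can hold MMPs at the surface, stood at -0.95 (adjusted p = 0.130). Adam9 stood at 0.74 (adjusted p = 0.0815) and Adam22 at -0.66 (adjusted p = 0.238). Adamtsl1 was at -1.30 (adjusted p = 0.214), and at -0.76 without induced replicate 3 (adjusted p = 0.0655), and Adamtsl4, which binds fibrillin fibres, at 0.69 (adjusted p = 0.150).

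Fap, a surface protease of fibroblasts, read 8.31, 8.20 and 5.88 in induced cells, against 8.85, 8.92 and 8.83 in control cells. Its estimate of -1.40 (adjusted p = 0.310) again rests largely on induced replicate 3, being -0.61 without it, where it passed (adjusted p = 0.0456). Ctss, a cathepsin of macrophages, read 8.45, 8.21 and 4.55 in induced cells, against 6.15, 6.94 and 4.68 in control cells, low on replicate 3 in both groups like Lyz2. Its estimate was 1.15 with overlapping groups (adjusted p = 0.655) and 2.41 without induced replicate 3 (adjusted p = 0.0909). Fosl1, an AP-1 subunit, read 8.65, 8.89 and 8.08 in induced cells, against 10.25, 9.33 and 9.34 in control cells, -1.10 (adjusted p = 0.161). Ets1 stood at -0.78 (adjusted p = 0.160). The groups did not overlap for either gene.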

How the data were processed

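Total RNA (6 µg, per the labels' protocols) was labelled with biotin and read on one-colour Affymetrix arrays. The deposited log2 signals were made by the authors with RMA, per the submitters' processing notes; the version and build are not given in the sources used here. The log2 scale was read from the values (array medians 5.64 to 5.73, highest value 13.55). Quantile normalization within RMA hides a change in total RNA per cell, and RMA gives no detection call. Depth does not apply to arrays. Precision is limited by how many there are.

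Of 36685 features, 18511 carried 1 symbol, which gave 18166 genes after the feature with the highest mean was kept per symbol. All 42 members had 1 feature and matched the RefSeq GRCr8 table by gene number. The 3 induced arrays were set against the 3 control arrays by limma 3.58.1 under R 4.3.3 (two-sided lmFit and eBayes, 4 residual degrees of freedom), with Benjamini-Hochberg adjustment over all genes and a threshold of 0.05. An exact permutation test of 3 against 3 arrays cannot give a p below 0.1 and was not used. No filter on low signals was set, and 29 of 42 members averaged above the median of all features. The fit was tested on simulated data with known changes.

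Named members were those whose groups did not overlap at an unadjusted p under 0.05, or with a change of at least 1, plus the TIMPs, Reck, Plau, Plaur, Plat, Mmp2, Mmp14 and the proteoglycan-cleaving ADAMTS above the median. In other lists, the rule names called genes or the 2 largest changes, though some cell type lists are given by their means alone. Ncan, Pdgfra, Thy1, Lyz2, Adgre1 and Ptprc were named outside that rule. So were genes that passed only without induced replicate 3. Members, lists and rules were chosen with earlier results of these data known. Promoter windows are RefSeq's (GRCr8), 1 per member; protein sequences were not used here. The replicate numbers were checked for pairing: deviations from the group mean correlated at 0.02, 0.12 and 0.15 between arrays of number 1, 2 and 3. Between arrays of unlike number they correlated at -0.14 to 0.12. These values do not decide whether the arrays are paired. The labels state no pairing, so the main fit has none and a replicate block is an alternative. Alternatives were a replicate block, each array left out, both replicate 3 arrays left out, array weights, another prior, a filter on dim genes, other scalings, all features and averaged features.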

Additional observations from a re-analysis of the deposited data

How the results depend on the processing

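The replicate numbers were not taken as pairs. Induced replicate 1 correlated best with control replicate 2, but the replicate 3 arrays had the highest of the 9 correlations of deviations (0.15), and the labels do not say whether they share a preparation. With a replicate block 12 genes and 0 members were called, against 136 genes and 0 members without it. With 1 array left out, called genes ranged from 2 (without induced replicate 1) to 557 (without induced replicate 3), called members from 0 to 4 and members without overlap from 13 to 19, against 32.7% to 38.3% of all genes. Fewer arrays make overlap rarer by construction. Called genes were 15 without control replicate 2, 20 without control replicate 3 and 26 without induced replicate 2. Without control replicate 1, 1 member passed (Adamts9), and without control replicate 3, 1 (Mmp12). Without both replicate 3 arrays 740 genes and 3 members were called (Timp4, Adamts15, Mmp12) and 23 members (54.8%) did not overlap, against 46.3% of all genes. Array weights, which gave induced replicate 3 a weight of 0.273, called 929 genes and 5 members: Timp4, Mmp15, Adamts9 and Adamts15 higher and Plaur lower (-0.62, adjusted p = 0.0462). With dim genes left out 29 members were tested and 1 was called (Timp4, adjusted p = 0.0499), against 150 of all 11246 genes tested. The member median was then -0.39, beside -0.02 over all those genes. Over all features 69 were called.

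Of 300 values of the 20 named members under 15 alternatives, 274 kept direction and call, 15 passed newly and 12 turned direction, with 1 doing both (Adamts5 without induced replicate 3). Without induced replicate 3, without both replicate 3 arrays and with array weights, Adamts1 was at 0.33, 0.10 and 0.20, Adamts5 at 0.76, 0.73 and 0.62, and Timp2 at 0.14, 0.13 and 0.0024. Plat was at 0.0262 without induced replicate 3 and 0.0239 without both replicate 3 arrays. Adamts5 was at 0.07 without control replicate 1. With 1 array left out, Adamts1 ranged from -0.77 to 0.33, Adamts5 from -0.43 to 0.76, Plat from -0.61 to 0.0262 and Timp2 from -0.75 to 0.14. The cause was not tested.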
